A study of Mus musculus with 24 samples.

Results

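Glucose entry, glycolysis and gluconeogenesis were followed here through 36 genes in endothelial cells sorted from the aorta and from the skeletal muscle of mice. The genes were chosen by name, and a probe belonged to a gene when the accession printed for it on the array maps to that gene. Of the 36 genes, 35 had a probe, out of 18539 gene symbols with a probe on the array, and Pdk2 was not analysed here. A gene with several probes was represented by the brightest one, which was the same probe in both tissues for every gene.

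Wild-type mice (WT, C57BL/6) and galectin-3 knockout mice (KO, B6.Cg-Lgals3tm1Poi/J, homozygous in all cells of the body for a deletion within Lgals3) entered the diets at 8 weeks of age. All were male. They ate chow with 12% of its calories from fat or a high-fat diet (HFD) with 60% for 8 weeks. Aorta and leg muscle (plantaris, gastrocnemius and biceps femoris) of the same animals were digested, and about 10000 live cells with CD105 and without CD45 on their surface were sorted from pools of 3 mice by the methods, or 3 to 4 by the labels. RNA was amplified and read on 24 single-colour arrays, 3 for each of 8 groups (tissue, strain and diet), with 1 array of every group in each of 3 experiments. The replicates of a group differ by experiment, and with it by slide and partly by scan session. The p values therefore measure the spread between these pools together with that of their arrays. In such sorted bulk samples fewer cells of a type and less RNA per cell cannot be told apart.

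Endothelial cells take up glucose through the carrier GLUT1 without help from insulin, and glycolysis rather than oxidation supplies most of their ATP. Hexokinase and phosphofructokinase set the pace of the upper pathway. The second of these is switched on by fructose 2,6-bisphosphate, which the PFKFB enzymes make and break down. Glucose 6-phosphatase and fructose 1,6-bisphosphatase run the opposing steps of gluconeogenesis, and the monocarboxylate carriers MCT1 and MCT4 move lactate across the membrane.

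Levels are log2 values of processed intensity, set so that the 75th percentile of every array is 0. They compare arrays for 1 probe and do not rank genes. The 75th percentile of the intensity lay between 2390 and 5938, 59.5% to 75.7% of spots rose well above background, and no spot was saturated. Each of the 6 slides carried the 4 groups of 1 tissue and experiment. Experiment 1 was scanned in 1 session and experiments 2 and 3 in another. All 10 endothelial markers (Pecam1, Cdh5 and others) were well above background on all 24 arrays. Their mean level lay between 1.55 and 3.66 on the aortic and between 3.83 and 4.29 on the muscle arrays. Transcripts of other cell types were present as well. The 13 skeletal muscle fibre markers had a mean level between 0.10 and 3.26 on muscle arrays and between -4.86 and -1.71 on aortic ones, and the 7 fibroblast markers between -0.03 and 3.80 against 4.38 and 5.93. Ucp1, which marks brown fat, lay between 0.80 and 4.89 on aortic arrays and between -9.45 and -5.31 on muscle arrays. The aortic KO chow array of experiment 1 stood apart, with the highest adipocyte (3.67) and brown adipocyte (1.13) marker means of all arrays and the highest fibre marker mean (-1.71) of the aorta.

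Lgals3 itself was read by 1 probe, whose place relative to the deletion was not analysed here. Its level lay between 0.90 and 3.20 on the aortic arrays labelled WT and between 2.40 and 4.53 on those labelled KO, and between 3.27 and 4.98 against 4.31 and 6.31 in muscle, so it is no check of the labels. Outside experiment 1, the strains were separated by 35 probes (limma, adjusted p under 0.05), which served to place the arrays of experiment 1 on a scale from 0 (WT) to 1 (KO). The chow arrays lay at 0.09 (WT) and 1.04 (KO) in aorta and at 0.13 and 0.91 in muscle. The HFD arrays lay at 0.17 (WT) and 0.38 (KO) in aorta and at 0.40 and 0.44 in muscle, so the HFD arrays of experiment 1 labelled KO sat nearer to WT. Most differences of the brightest probe within 1 strain that involve HFD, or between the strains on HFD, are therefore also given without experiment 1. Values of other probes are given with all experiments only.

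Aorta and muscle were compared over the means of their 4 groups. Of the 35 genes, 12 differed between the tissues (limma with the slide as a random block, Benjamini-Hochberg adjusted p under 0.05), 4 higher and 8 lower in aortic endothelium. Of all 27387 probes tested, 28.2% did so. One of the 8, Fbp2, entered the fit only through its muscle arrays, where it is high. Enolase 2 and hexokinase 2 led the higher genes, at 14.5-fold and 8.27-fold. Muscle phosphoglycerate mutase, Pgam2, and both fructose 1,6-bisphosphatases led the lower ones. The median difference of the 35 genes was -0.19 on the log2 scale. That of all probes was -0.27, so a gene at about -0.27 stood in the middle of the array. Aorta and muscle of an experiment come from the same animals. A fit with each pool of animals as a block called 20 of the 35 genes and 57.1% of all probes, all 12 among them. It held no term for the slide, though each slide carried 1 tissue only, so pools that share slides counted as independent. The 8 further genes are named below with the adjusted p of that fit. With an experiment left out, fewer of all probes were called than the 7715 of 27387 with all experiments. They were 4763 of 28602 without experiment 1, 3027 of 28710 without experiment 2 and 7186 of 29618 without experiment 3. A call lost in such a refit, as given below for single genes, therefore does not by itself tie a gene to that experiment.

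**Figure D1:**
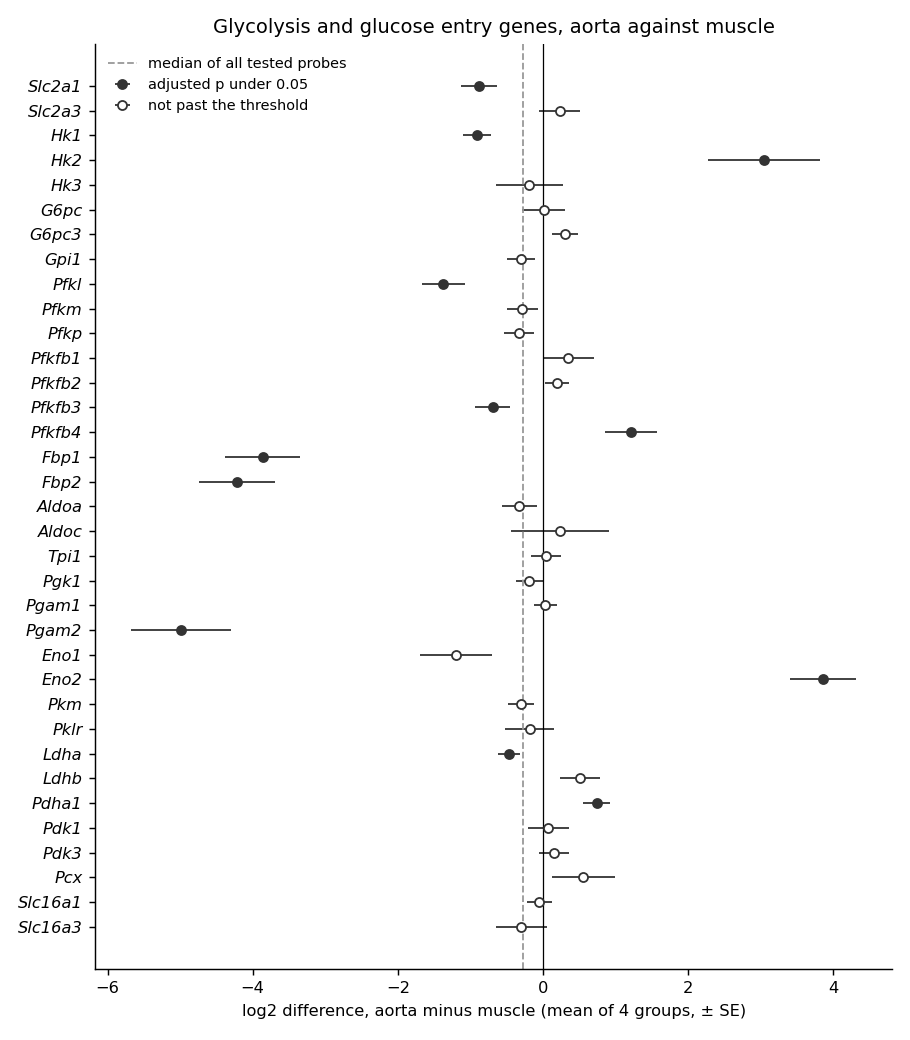
Log2 difference between aorta and muscle (x axis, mean of 4 groups, bars ± SE from limma) for the 35 genes with a probe, in the order of the pathway. Filled circles mark the 12 genes with an adjusted p under 0.05, and the dashed line marks the median of all probes tested (-0.27). Hk2 and Eno2 stand far to the right, and Fbp1, Fbp2 and Pgam2 far to the left.

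The promoters of the 5 genes with the largest differences are shown for what their letters hold, since these genes head the tissue comparison. They are RefSeq windows of the build GRCm38.p6, 5′ to 3′ on the strand of the gene, from 250 bases before to 50 bases after the start. Capitals mark ACGTG on either strand (read as CACGT on the other), the core of the hypoxia response element that is also part of the E-box CACGTG, and matches to the MEF2 motif of muscle genes.
Eno2, chr6:124769624-124769923, minus strand: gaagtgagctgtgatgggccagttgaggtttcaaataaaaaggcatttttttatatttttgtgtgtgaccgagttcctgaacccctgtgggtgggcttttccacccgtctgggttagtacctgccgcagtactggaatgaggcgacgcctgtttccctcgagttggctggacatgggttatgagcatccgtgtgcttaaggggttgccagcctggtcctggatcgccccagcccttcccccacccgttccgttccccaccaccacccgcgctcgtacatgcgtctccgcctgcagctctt
Hk2, chr6:82774405-82774704, minus strand: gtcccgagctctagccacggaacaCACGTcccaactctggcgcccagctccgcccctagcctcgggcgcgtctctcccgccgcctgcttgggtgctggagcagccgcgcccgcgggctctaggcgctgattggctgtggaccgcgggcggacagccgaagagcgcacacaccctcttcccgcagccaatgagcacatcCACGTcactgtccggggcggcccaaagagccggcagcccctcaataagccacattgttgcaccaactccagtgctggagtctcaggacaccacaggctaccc
Pgam2, chr11:5803747-5804046, minus strand: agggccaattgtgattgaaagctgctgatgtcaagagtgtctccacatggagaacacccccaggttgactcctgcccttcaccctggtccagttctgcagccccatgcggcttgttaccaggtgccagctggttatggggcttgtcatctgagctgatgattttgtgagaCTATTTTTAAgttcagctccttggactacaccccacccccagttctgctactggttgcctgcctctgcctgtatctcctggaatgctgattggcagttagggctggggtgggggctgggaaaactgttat
Fbp2, chr13:62858351-62858650, minus strand: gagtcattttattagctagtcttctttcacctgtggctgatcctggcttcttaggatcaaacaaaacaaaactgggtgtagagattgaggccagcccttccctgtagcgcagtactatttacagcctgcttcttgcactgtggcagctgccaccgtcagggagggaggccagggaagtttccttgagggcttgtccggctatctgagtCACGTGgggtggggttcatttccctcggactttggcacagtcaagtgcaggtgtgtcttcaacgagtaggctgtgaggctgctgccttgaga
Fbp1, chr13:62888233-62888532, minus strand: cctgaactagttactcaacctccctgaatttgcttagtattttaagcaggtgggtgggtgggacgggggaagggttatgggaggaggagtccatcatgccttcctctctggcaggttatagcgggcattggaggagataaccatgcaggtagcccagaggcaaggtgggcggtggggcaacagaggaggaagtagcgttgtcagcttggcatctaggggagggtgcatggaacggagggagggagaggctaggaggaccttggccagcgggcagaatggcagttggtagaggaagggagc

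Hk2 held 2 ACGTG sites and Fbp2 held 1, within a CACGTG, while Eno2, Fbp1 and Pgam2 held none in these windows. The Pgam2 window held 1 MEF2 match. A window was found for 35 of the 36 genes (none for Slc2a3), 56 windows in all, as 14 genes have several. ACGTG was in 24 of these 56 windows (42.9%) and in 19.6% of all 32851 windows. The MEF2 motif was in 2 of the 56 (3.57%) and in 3.19% of all. A match describes the letters and not a site in use.

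Eno2, the neuronal form of enolase, read between -0.57 and 2.41 (median 1.07) on the 12 aortic arrays and between -4.17 and -2.08 (median -2.73) on the 12 muscle arrays. The tissues did not overlap, and the difference was 3.86 ± 0.45 on the log2 scale (SE, adjusted p = 4.98e-06). Its other probe gave 3.83. Between experiments the difference ranged from 3.39 to 4.40. Eno1, the general form, read between -5.30 and -2.65 in aorta and between -4.29 and -1.61 in muscle through its only probe (difference -1.20 ± 0.50, adjusted p = 0.078). It was lower in aorta in 12 of 12 pools, and was called when the slide was not a block (adjusted p = 0.016) or with the pool as a block (adjusted p = 0.00074).

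Hk2, the hexokinase of insulin-responsive muscle and fat, read between 0.19 and 2.44 on the aortic arrays. On muscle arrays it spread from -5.92 to 1.19, and the 4 arrays of experiment 1 (-0.69, 1.19, -0.18 and 0.83) stood above the 8 of the other experiments. In 2 of the 4 pools of experiment 1 Hk2 was lower in aorta than in muscle (0.19 against 1.19 and 0.60 against 0.83), and it was higher in the other 10 of the 12 pools. The tissues lay 0.93 apart in experiment 1, but 4.63 and 3.58 apart in the second and the third. Over all arrays it was 3.05 ± 0.77 (adjusted p = 0.0063), and without experiment 2 it was 2.26 and without experiment 3 it was 2.78, both no longer called (adjusted p = 0.116 and 0.057). Of the brown adipocyte markers 4 of 7 were called higher in aorta, and of the fibroblast markers all 7. Only 5 of the 7 brown adipocyte markers passed the filter on muscle arrays. Ucp1, among the 4, entered the fit only through its aortic arrays, where it is high. On muscle arrays the fibroblast mean was 2.19 to 3.80 in experiment 1 against -0.03 to 2.45 in the others, and the skeletal fibre mean 2.68 to 3.26 against 0.10 to 1.85. Their part in the level of Hk2 was not tested. Hk1, the hexokinase of most tissues, was lower in aorta, at 3.31 to 4.35 against 4.11 to 5.06, a difference of -0.91 ± 0.19 (adjusted p = 0.0015) in 12 of 12 pools. All 5 of its other probes gave values below 0, and without experiment 2 it was not called (-0.82, adjusted p = 0.123). Hk3, the myeloid form, was dim in both tissues (-0.19 ± 0.46).

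**Figure D2:**
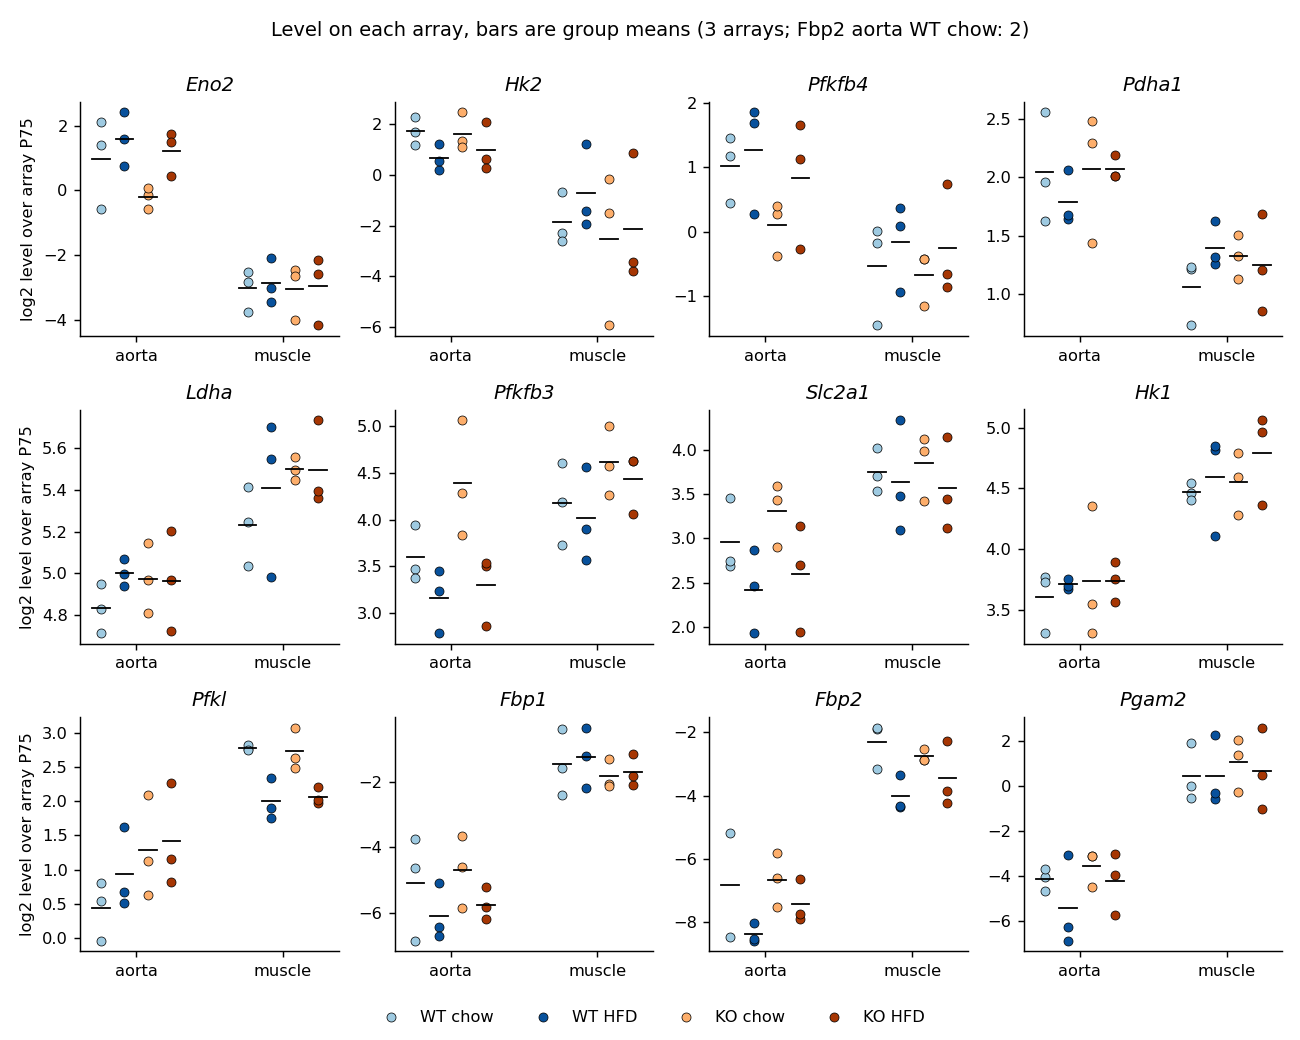
Level on each array (y axis, log2 over the 75th percentile of the array) of the 12 genes that differed between the tissues, ordered from higher in aorta to lower, with points coloured by strain and diet and bars at group means of 3 arrays (2 for Fbp2 in aorta of WT on chow, where 1 array had no valid spot). Eno2, Fbp1, Fbp2 and Pgam2 do not overlap between the tissues, and the other 8 genes do.

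Pgam2, which carries out in muscle the step that Pgam1 carries out elsewhere, read between -6.86 and -3.00 in aorta, well above background on 11 of 12 arrays, and between -1.03 and 2.59 in muscle. The difference was -4.99 ± 0.69 (adjusted p = 2.68e-05). On the muscle arrays it was higher in experiment 1 (1.92, 2.27, 2.04 and 2.59) than in the others (-1.03 to 1.39). The fibre markers had a mean of 2.68 to 3.26 in experiment 1 and of 0.10 to 1.85 in the others. All 13 were called lower in aorta, but only 12 of them also passed the filter on aortic arrays. The remaining marker entered the fit only through muscle, where it is high. Pgam2 differed by -7.13 in experiment 1 and by -4.50 and -3.33 in the later experiments. The part of muscle fibre RNA in this difference was not tested. The general form, Pgam1, differed by 0.03 ± 0.16.

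Fbp1 and Fbp2, the liver and muscle forms of fructose 1,6-bisphosphatase, were both lower in aorta and did not overlap between the tissues. Fbp1 read between -6.86 and -3.65 in aorta, well above background on 8 of 12 arrays, and between -2.39 and -0.33 in muscle (difference -3.86 ± 0.51, adjusted p = 1.93e-05). Fbp2 was well above background on 2 of 12 aortic arrays and on all 12 of muscle, where it read between -4.37 and -1.85. The aortic count takes in the array without a valid spot, so fewer of the 11 arrays with a value may hold it. The measured means of Fbp2 were -7.34 and -3.13. In 3 of the 4 aortic groups it was not well above background on any array. Set against the dimmest signal that was, it was at least 7.32-fold lower in aorta. Since Fbp2 passed the filter only through muscle, where it is high, no p value is given for it. One aortic WT chow array had no valid spot for Fbp2, and the fit dropped it. Of 35 genes tested, 4 did not overlap between the tissues (Eno2, Pgam2, Fbp1 and Fbp2, the last with the limit just given), and of all probes 5.65% did not. Eno2, Pgam2 and Fbp1 were called whichever experiment was left out.

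At phosphofructokinase, the liver-type subunit Pfkl was lower in aorta, at -0.04 to 2.27 against 1.75 to 3.07 (difference -1.37 ± 0.29, adjusted p = 0.0017), in 11 of 12 pools. Without experiment 2 it was not called (-1.19, adjusted p = 0.116). Pfkm and Pfkp, the muscle and platelet types, differed by -0.28 ± 0.22 and -0.33 ± 0.21. They were called only with the pool of animals as a block (adjusted p = 0.045 and 0.024). A second Pfkp probe gave 0.89 (adjusted p = 0.0497), of the opposite sign, so no direction is given for Pfkp. Of the enzymes that set fructose 2,6-bisphosphate, Pfkfb3, the form of high kinase activity, was lower in aorta (-0.70 ± 0.24, adjusted p = 0.040) and Pfkfb4 higher (1.21 ± 0.36, adjusted p = 0.016). Both overlapped between the tissues. Pfkfb4 was higher in 12 of 12 pools, and was not called without experiment 1 or without experiment 2 (adjusted p = 0.081 and 0.133). Pfkfb3 was called in 5 of 11 alternatives. It was not called when any 1 experiment was left out, under quantile scaling (-0.53, adjusted p = 0.101), with no filter on dim probes (adjusted p = 0.053) or with the mean over its probes (-0.61, adjusted p = 0.286), and 1 of its other probes gave 0.23. Pfkfb1 and Pfkfb2 differed by 0.35 ± 0.35 and 0.19 ± 0.17.

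Slc2a1 (GLUT1) was well above background on every array. It read 2.69, 3.45 and 2.74 on the aortic WT chow arrays of experiments 1, 2 and 3 and 1.94, 2.87 and 2.46 on WT HFD. The KO values were 3.59, 3.43 and 2.91 on chow and 1.95, 3.13 and 2.71 on HFD. In muscle it read between 3.09 and 4.33. Aorta was lower in 12 of 12 pools, by -0.88 ± 0.25 (adjusted p = 0.013), or -0.60 relative to the median of all probes, though the ranges overlapped. Of the endothelial markers 8 of 10 were also called lower in aorta, with a median difference of -1.06, and their part in this value was not tested. Without experiment 1 or without experiment 2 the difference was -0.81 and -0.87 and was not called (adjusted p = 0.059 and 0.120). Slc2a3 (GLUT3) differed by 0.23 ± 0.28.

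The genes of the lower pathway other than enolase and Pgam2 lay closer together. Ldha, the subunit that favours lactate formation, was lower in aorta by -0.47 ± 0.15 (adjusted p = 0.026), which is -0.19 relative to the median of all probes, and was not called under quantile scaling (-0.27, adjusted p = 0.133) or when any 1 experiment was left out. Its other probe gave -0.85. Ldhb differed by 0.51 ± 0.27 and was called only under quantile scaling and with the pool of animals as a block. Pdha1, of pyruvate dehydrogenase, read 1.43 to 2.56 in aorta and 0.73 to 1.69 in muscle and was higher in aorta in 12 of 12 pools (0.74 ± 0.19, adjusted p = 0.0070), though not called without experiment 1 or without experiment 2 (adjusted p = 0.086 and 0.060). With the pool of animals as a block, Ldhb had an adjusted p of 0.0036. Of the remaining genes Gpi1, Aldoa, G6pc3 and Pcx were called with that block (adjusted p = 0.0020, 0.0055, 0.027 and 0.042) and not with the slide as a random block, and the others in neither fit. Gpi1 (-0.30, below 0 in 12 of 12 pools), Aldoa (-0.33), Aldoc (0.24), Tpi1 (0.04), Pgk1 (-0.19), Pkm (-0.30) and Pklr (-0.19) carry sugar from glucose 6-phosphate to pyruvate. G6pc (0.01) and G6pc3 (0.30) form free glucose. Pdk1 (0.07), Pdk3 (0.16) and Pcx (0.55) set the fate of pyruvate, and Slc16a1 (-0.05) and Slc16a3 (-0.30) carry lactate.

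Of the other glycolysis and pyruvate genes, 3 of 17 tested were higher and 4 lower in aorta, with a median of -0.11 beside the -0.27 and 28.2% called of all probes. Slc16a7 (MCT2) was higher by 3.34 ± 0.52, Pdk4 by 1.14 ± 0.29 and Bpgm by 0.68 ± 0.25. Muscle enolase, Eno3, was lower by -2.27 ± 0.42, the insulin-responsive carrier Slc2a4 (GLUT4) by -1.46 ± 0.37, Pck2 by -0.67 ± 0.14 and Gapdh by -0.57 ± 0.13. In glycogen metabolism the 3 phosphorylases differed, with muscle Pygm lower (-2.65 ± 0.26) and liver Pygl (2.29 ± 0.37) and brain Pygb (0.65 ± 0.23) higher among 12 genes tested, a share below that of all probes. Of 6 pentose phosphate genes G6pdx was higher (0.88 ± 0.24), which is also below it. Of 14 targets of hypoxia-inducible factor outside glycolysis, Vegfa (2.31 ± 0.34), Adm and P4ha1 were higher and Egln1, Ankrd37 and Ddit4 lower. All these were called at an adjusted p under 0.05 in the same fit.

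HFD was compared with chow within each pair of arrays of 1 tissue, strain and experiment, which asks how the diet moves these genes in each strain. No gene of the 35 passed an adjusted p of 0.05 (limma with a block for each pair) in any comparison of the diets, so the values that follow are differences and not calls. In aorta no probe was called in WT (0%) or KO (0%), and 0.0309% were over both strains. At an unadjusted p under 0.05 stood 2 of 34 genes in WT beside 5.77% of all probes, 5 in KO beside 11.3%, and 12 over both strains beside 15.1%. Of these 12, 4 were above and 8 below chow. Fbp1, among the 8, entered the fit only through its KO chow arrays, where it is high. Without experiment 1 the counts fell to 1 in WT, 1 in KO and 2 over both. Without the aortic KO chow array of experiment 1 alone they were 2 in KO and 5 over both. No share of all probes is given beside these refits, which hold fewer arrays. The fall is therefore no result about these genes. In muscle 0% of probes were called in WT, 0.00389% in KO and 0.288% over both strains. The genes at an unadjusted p under 0.05 were 6 of 35 in WT beside 12.1%, 3 in KO beside 8.49% and 5 over both beside 16.4%. Without experiment 1 those in WT were 3 and in KO 1, again with no share of all probes beside them. Aldoc, in each of the muscle counts with all experiments, entered the fit only through its KO chow arrays, where it is high. The median difference of the genes over both strains was 0.01 in aorta and 0.09 in muscle, with 0.01 and -0.01 over all probes.

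**Figure D3:**
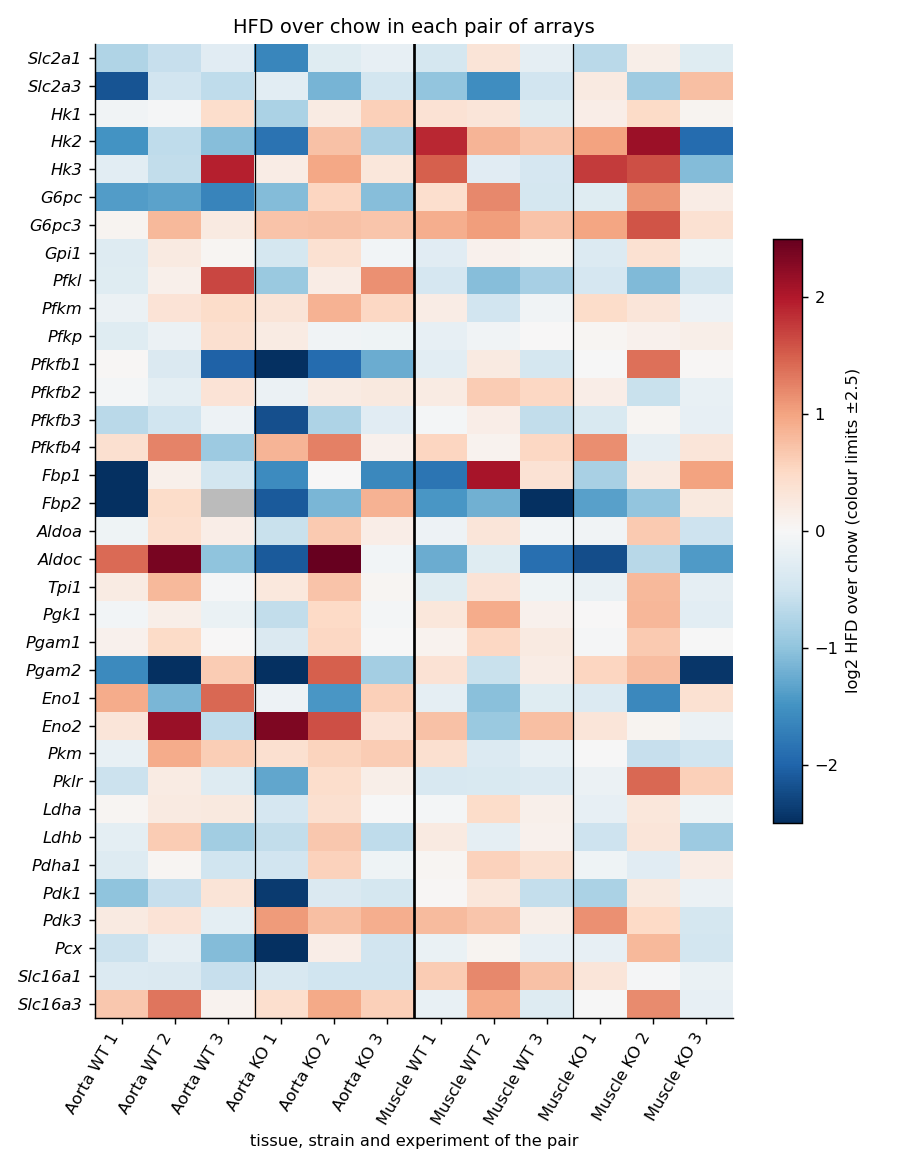
Log2 of HFD over chow for the 35 genes (rows, in the order of the pathway) in each of the 12 pairs of arrays (columns, by tissue, strain and experiment), with red for higher and blue for lower on HFD and grey where an array had no valid spot. G6pc3 is red in all 12 pairs, and Slc16a1 is blue in the 6 aortic pairs and red in the 3 muscle WT pairs.

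G6pc3, the widely expressed glucose 6-phosphatase, was above chow in all 12 pairs, by 0.07 to 1.56, as the only one of the 35 genes to go 1 way throughout. Of all probes 1.62% did, so a count of 1 in 35 is near the background. The promoter of G6pc3 is shown for its letters only, with ACGTG capitalised as above, here within CACGTG both times.
G6pc3, chr11:102189449-102189748, plus strand: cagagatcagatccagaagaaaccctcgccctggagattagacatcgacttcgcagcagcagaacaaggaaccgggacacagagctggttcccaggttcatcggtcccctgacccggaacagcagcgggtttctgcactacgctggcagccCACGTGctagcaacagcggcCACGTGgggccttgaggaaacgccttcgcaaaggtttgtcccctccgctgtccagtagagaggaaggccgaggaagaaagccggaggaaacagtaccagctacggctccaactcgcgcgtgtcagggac

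On muscle arrays G6pc3 read 1.81, 1.75 and 1.75 on WT chow and 2.71, 2.80 and 2.46 on WT HFD. In KO it read 1.96, 1.63 and 1.85 on chow and 2.95, 3.19 and 2.22 on HFD. Neither strain overlapped between the diets. The difference over both strains was 0.93 ± 0.19 (adjusted p = 0.113, unadjusted p = 0.0019). With the slide as a block in place of the pair it was called (0.93, adjusted p = 0.046), and over all alternatives it lay between 0.74 and 1.13. In aorta it read 2.82, 1.99 and 2.28 on WT chow against 2.89, 2.79 and 2.52 on HFD, and 2.34, 2.36 and 1.94 on KO chow against 3.05, 3.09 and 2.64. The KO arrays did not overlap between the diets, and the WT arrays did. The aortic difference over both strains was 0.54 ± 0.18 (adjusted p = 0.266). G6pc, the liver and kidney form, went below chow in aorta in 5 of 6 pairs (-0.996 ± 0.26, adjusted p = 0.213). In WT it read -2.69, -2.47 and -3.10 on chow and -4.08, -3.80 and -4.74 on HFD (-1.46 ± 0.37, adjusted p = 0.54, and -1.49 without experiment 1).

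**Figure D4:**
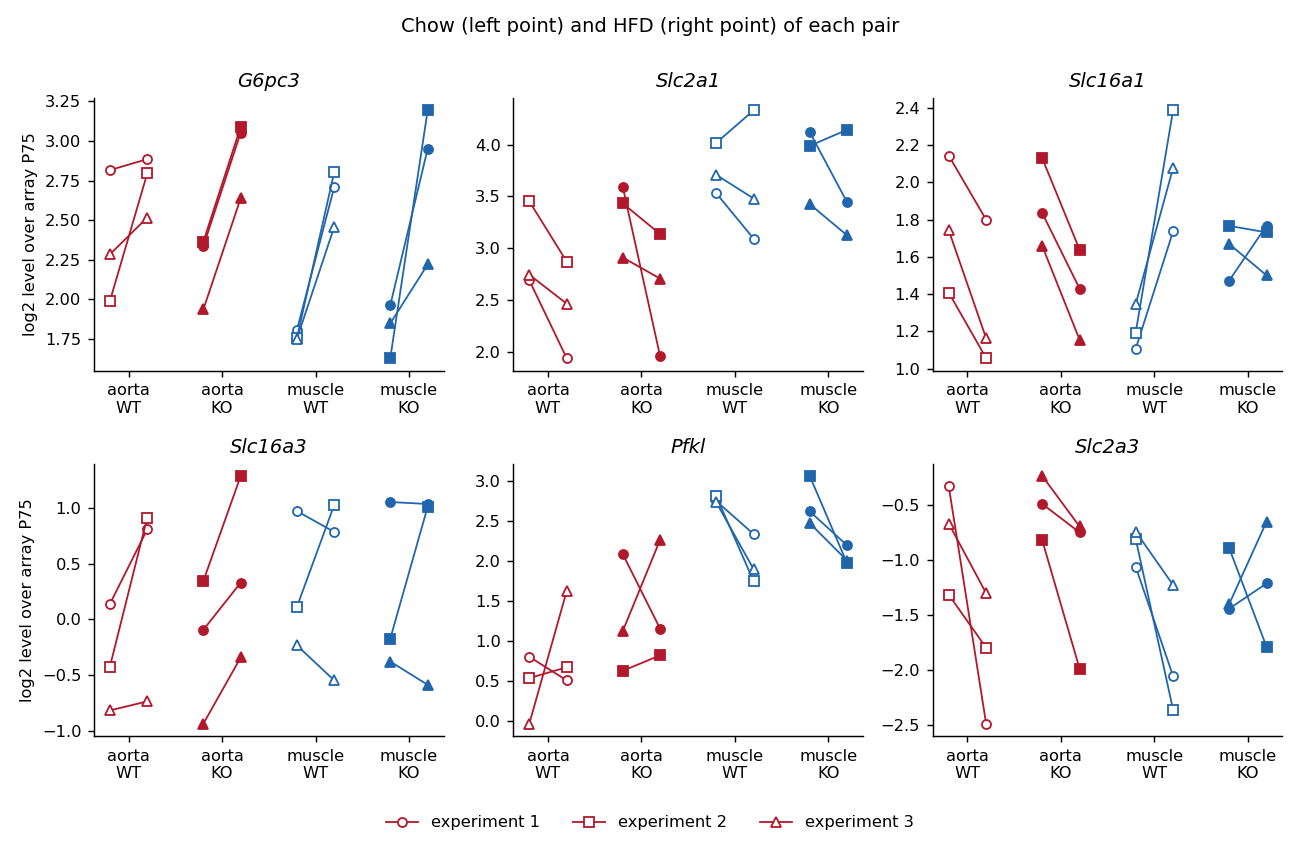
Chow and HFD levels of each pair of arrays (y axis, log2 over the 75th percentile of the array) for 6 genes, with aorta in red, muscle in blue, open symbols for WT, filled for KO and a symbol shape for each experiment. Every G6pc3 line goes up, all aortic lines of Slc2a1, Slc2a3 and Slc16a1 go down, and all aortic lines of Slc16a3 go up.

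Glucose carriers were lower on HFD in all 6 aortic pairs. Slc2a1 differed by -0.63 ± 0.25 (pairs from -1.64 to -0.20, adjusted p = 0.313, and -0.34 without experiment 1) and Slc2a3 by -0.86 ± 0.28 (pairs from -2.16 to -0.26, adjusted p = 0.261, and -0.69 without experiment 1). The endothelial marker mean was itself lower on aortic HFD arrays, at 1.55 to 3.30 against 2.49 to 3.66 on chow. All 10 endothelial markers had a value below 0, with a median of -0.75, and 4 of them an unadjusted p under 0.05. Their part in the values of the carriers was not tested. In muscle Slc2a3 was lower on HFD in 3 of 3 WT pairs (-1.01 ± 0.36, adjusted p = 0.35, and -1.02 without experiment 1). Its KO arrays overlapped between the diets.

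The lactate carriers stood on opposite sides in aorta. Slc16a1 (MCT1) was below chow in 6 of 6 pairs (-0.45 ± 0.16, adjusted p = 0.29). Its other probe tested in aorta gave -0.396. The mean over its probes gave 0.02, but that mean takes in a probe that did not pass the filter in aorta. The direction of Slc16a1 there rests on whether that probe is counted. By the brightest probe the WT values of Slc16a1 were 2.14, 1.41 and 1.74 on chow and 1.80, 1.06 and 1.16 on HFD. The KO values were 1.84, 2.13 and 1.66 against 1.43, 1.64 and 1.16. Slc16a3 (MCT4) was above chow in 6 of 6 (0.68 ± 0.22, adjusted p = 0.261). Its single values spanned -0.94 to 1.29, and the diets overlapped in each strain. In muscle Slc16a1 was above chow in 3 of 3 WT pairs, at 1.74, 2.39 and 2.08 against 1.11, 1.19 and 1.35 (0.85 ± 0.22, adjusted p = 0.236, and 0.96 without experiment 1), and KO values lay close together (1.77, 1.73 and 1.5 against 1.47, 1.77 and 1.67). Over both strains the muscle difference was 0.44 ± 0.16 (adjusted p = 0.246). The response of KO less that of WT was -0.82 ± 0.31 in muscle (adjusted p = 0.999, and -1.06 without experiment 1). The other Slc16a1 probes gave 0.42 and 0.68 in muscle WT.

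Several genes of the upper pathway were lower on aortic HFD arrays at an unadjusted p under 0.05. Pfkfb1, the liver and muscle form of the bifunctional enzyme, differed by -1.42 ± 0.35 (adjusted p = 0.199). It read 0.75, 0.04 and -1.20 on KO chow and -2.25, -1.89 and -2.43 on KO HFD, which did not overlap (-2.05 ± 0.50, and -1.58 without experiment 1). Pfkfb3 differed by -0.76 ± 0.28, Hk2 by -0.85 ± 0.35 and Fbp1 by -1.04 ± 0.43. Without experiment 1 these were -0.42, -0.44 and -0.48. Fbp1 was well above background on 1 of the 3 WT HFD arrays and on 2 of the 3 WT chow and of the 3 KO HFD arrays. It entered the aortic fit only through the KO chow arrays, where it is high. Its p value is therefore no support for a lower level on HFD. The 10 adipocyte markers with a probe had a mean of 1.72 to 3.67 on aortic chow arrays and -1.01 to 0.45 on HFD, and of 9 tested 7 were lower at an unadjusted p under 0.05, with a median of -3.24. Slc2a4, which fat and muscle cells use, went the same way (-1.62 ± 0.44, adjusted p = 0.221). Pcx, pyruvate carboxylase, read 5.27 on the aortic KO chow array that stood apart and between 1.36 and 2.5 on the other 11 aortic arrays. The part of fat cell RNA in these values was not tested.

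**Figure D5:**
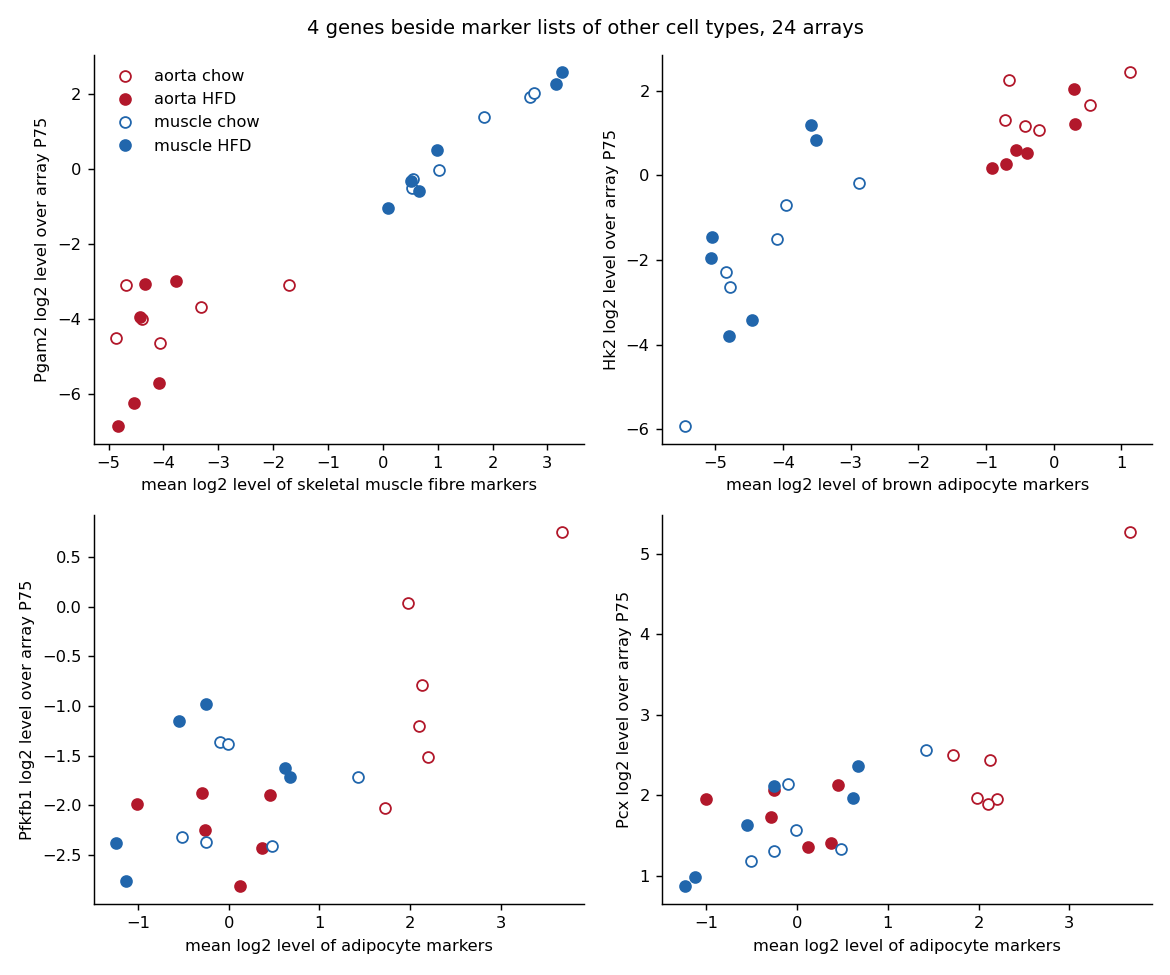
Levels of Pgam2, Hk2, Pfkfb1 and Pcx (y axes, log2 over the 75th percentile of the array) against the mean level of marker genes of another cell type (x axes) on the 24 arrays, with aorta in red, muscle in blue, open circles for chow and filled for HFD. The highest Pcx and Pfkfb1 points are the aortic KO chow array of experiment 1, which also has the highest adipocyte marker mean (3.67).

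Eno2 (1.02 ± 0.42) and Pdk3 (0.50 ± 0.18) were higher on aortic HFD arrays at an unadjusted p under 0.05. In KO, Pdk3 read 0.08, 0.38 and -0.29 on chow and 1.14, 1.13 and 0.61 on HFD (0.90 ± 0.25, adjusted p = 0.373, and 0.82 without experiment 1). Its other probe gave 0.22 there, -0.185 in WT and 0.015 over both strains, so the aortic value of Pdk3 depends on the choice of probe. The rest of the aortic genes held no unadjusted p under 0.05 over both strains, among them Gpi1 (-0.03), Pfkp (-0.01), Pgk1 (-0.05), Aldoa (0.12), Pgam1 (0.12), Tpi1 (0.34) and Pfkm (0.39) of the general pathway.

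In muscle the other genes at an unadjusted p under 0.05 were Pfkl, Aldoc and Fbp2, each by its brightest probe. Other probes of Hk1 gave -0.89, -1.39, -1.08, -0.16 and 0.65 in WT, where the brightest gave 0.12. The first 3 had an unadjusted p under 0.05. In KO these probes gave 0.26, 1.03, 0.56, 0.003 and -0.81. The other Pfkp probe gave 1.04 over both strains (limma, unadjusted p = 0.018), where the brightest gave 0.004. The muscle counts therefore depend on the choice of probe. Pfkl was below chow in 6 of 6 pairs. It read 2.75, 2.82 and 2.74 on WT chow against 2.34, 1.75 and 1.90 on HFD, and 2.63, 3.07 and 2.48 on KO chow against 2.20, 1.97 and 2.01, without overlap in either strain (-0.72 ± 0.17, adjusted p = 0.141). Aldoc, the brain form of aldolase, was below chow in 6 of 6 (-1.30 ± 0.28, adjusted p = 0.12), but was well above background on 8 of 12 muscle arrays only. It entered the muscle fit only through the KO chow arrays, where it is high. Its p values are therefore no support for a lower level on HFD. Fbp2 was below chow in 3 of 3 WT pairs, at -3.35, -4.37 and -4.33 against -1.89, -3.16 and -1.85 (-1.72 ± 0.39, adjusted p = 0.22, and -1.85 without experiment 1). Over the same arrays the 13 fibre markers had a median difference of -0.24 and the 7 fibroblast markers one of 1.15, with 5 of the 7 at an unadjusted p under 0.05. Their part in these values was not tested.

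The diet responses of the tissues were compared directly. No probe was called (0%). Of the 35 genes 7 had an unadjusted p under 0.05 beside 9.24% of all probes, 3 higher and 4 lower in aorta. Slc16a1 had the smallest p, its aortic response less that of muscle being -0.89 ± 0.20 (unadjusted p = 0.00099, adjusted p = 0.198), and below 0 in 6 of 6 pools. Its 2 other probes gave -0.51 and 0.07. The others were Pfkfb1 (-1.57), G6pc (-1.36), Hk2 (-1.62), Pkm (0.70), Pfkl (1.04) and Aldoc (1.89).

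KO and WT were compared on each diet, and their responses to HFD with each other. No gene of the 35 was called in any of the 6 comparisons. On chow 0.0116% of aortic and 0% of muscle probes were called, on HFD 0.00387% and 0%, and for the difference between the responses 0% in both tissues. At an unadjusted p under 0.05 stood 3 of 34 genes in aorta on chow (4.41% of all probes) and 0 on HFD (1.15%), and 0 of 35 in muscle on chow (2.42%) and 1 on HFD (3.15%). For the responses these were 0 in aorta (2.62%) and 1 in muscle, Slc16a1 (4.12%). Without experiment 1 the counts on HFD and for the responses were the same, 0 in aorta and 1 in muscle, with no share of all probes beside them. The probes of Hk1 disagreed in muscle. Of its 5 other probes 3 had an unadjusted p under 0.05 for the response of KO less that of WT (1.15, 2.42 and 1.64, adjusted p = 0.999) and for KO over WT on HFD (1.11, 1.75 and 1.05, adjusted p = 1), where the brightest probe gave 0.12 and 0.20, so the counts depend there on the choice of probe. The 3 aortic genes on chow were G6pc, Pfkfb1 and Pdk1. G6pc was lower in KO in 3 of 3 experiments (-1.02 ± 0.39, adjusted p = 1). Pdk1, a kinase that holds pyruvate dehydrogenase off, was higher in KO in 3 of 3, at 2.62, 1.05 and 1.18 against 0.76, 0.91 and 0.31 (0.96 ± 0.43, adjusted p = 1), and 0.50 without experiment 1, when none of the 3 had an unadjusted p under 0.05. In muscle on HFD, Pfkfb2 was lower in KO in 3 of 3 (-0.62 ± 0.25, adjusted p = 1, and -0.88 without experiment 1).

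Slc2a1 itself differed between KO and WT by 0.35 ± 0.40 in aorta on chow and 0.17 ± 0.40 on HFD, and by 0.09 ± 0.38 and -0.06 ± 0.38 in muscle. Without experiment 1 the HFD values were 0.25 in aorta and -0.27 in muscle. Slc2a4 was higher in aortic KO on chow (1.22 ± 0.52, adjusted p = 1), where it read 2.62, 0.65 and 1.65 against 0.03, 0.86 and 0.38. The first of these is the array with the most adipocyte marker signal. Gapdh, often used as a reference gene, lay between 4.82 and 5.56 in aorta and between 5.38 and 5.84 in muscle, and no comparison of diet or strain called it.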

How the data were processed

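The authors hybridised cRNA from sorted endothelial cells to single-colour arrays, 1 per pool, and deposited for each array the processed intensity of every spot, already corrected for background by Feature Extraction (10.5.1.1 per the file headers, 9.1 in the submitters' processing notes). The deposited log2 table equals the log2 of that intensity plus a constant per array to within 6.5e-06, but the constants were set within each tissue, so it was an alternative only within a tissue. Of 45018 spots the 43379 that are no controls were used, outlier spots were left out, spots of a probe were averaged, and a probe entered a fit if all arrays of some group had it well above background.

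Levels were fitted with limma 3.58.1 in R 4.3.3, with Benjamini-Hochberg adjustment over all probes tested. Diet fits (25865 probes in aorta, 25682 in muscle) held a block for each strain and experiment, since the methods take ratios within an experiment. Strains were compared by group means, and tissues by 8 group means with the slide as a random block (consensus correlation 0.28). Of the 36 genes, 34 passed the filter in aorta (all with a probe but Fbp2), 35 in muscle and 35 over both. Genes were named when called, or when among the 3 smallest unadjusted p under 0.05 that went 1 way in all 3 experiments, with Slc2a1 and the genes of each step besides. The genes and lists were chosen with earlier results of these data known. An exact permutation test of 3 arrays against 3 cannot go below p = 0.1, so none was used. The pairing of aorta and muscle rests on shared animals, with deviations that correlated at 0.07 to 0.40 in 12 pools. The diet pairs of a strain correlated at a median of 0.09 in aorta and 0.31 in muscle. Within an experiment the strains on 1 diet correlated at 0.28 and 0.35, and the other combinations at 0.15 and 0.27. The aortic diet pairs were thus no closer than other arrays of their experiment. Alternatives were normexp (on the median signal), quantile scaling, other filters and blocks, the mean over probes, the methods' t-test and leaving out each experiment. The fits were also run on simulated arrays with independent noise and no correlation within slides or pools, so error rates under the real design were not tested.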

Additional observations from a re-analysis of the deposited data

Results flagged for a closer look

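In 3 genes every HFD array lay on one side of its chow partner in one tissue and on the other side in the other tissue, within the same strain, 2 of 35 genes in WT and 1 of 35 in KO. Of all probes 2.51% did so in WT and 2.78% in KO, so the counts are near the background. In WT, Hk2 was below chow in aorta (mean -1.06, from -1.49 to -0.63) and above it in muscle (mean 1.14, from 0.68 to 1.88), a difference of -2.19 on the log2 scale. Without experiment 1 Hk2 differed by -0.85 in aorta and 0.76 in muscle. The difference within WT was not tested. Over both strains the difference of the tissues was -1.62 (unadjusted p = 0.0352, limma adjusted p = 0.49).

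In KO, Pkm was above chow in aorta (mean 0.53, from 0.41 to 0.63) and below it in muscle (mean -0.36, from -0.57 to -0.01), a difference of 0.89. The muscle value nearest to 0 is the pair of experiment 1, whose KO HFD arrays lay nearer to WT in both tissues. Without experiment 1 the means were 0.59 and -0.54. The difference within KO was not tested. Over both strains it was 0.70 (unadjusted p = 0.021, limma adjusted p = 0.435).

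In WT, Slc16a1 was below chow in aorta (mean -0.43, from -0.58 to -0.34) and above it in muscle (mean 0.85, from 0.63 to 1.19), a difference of -1.28, and without experiment 1 the means were -0.47 and 0.96. The difference within WT was not tested. Over both strains it was -0.89 (unadjusted p = 0.00099, limma adjusted p = 0.198). Groups of 3 arrays were too small to look for single arrays far from their group.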

How the results depend on the processing

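Of 75 differences that were called, had an unadjusted p under 0.05, or belonged to Slc2a1 or the opposite diet responses, 70 kept their direction under every alternative run and 5 did not. Slc16a1 in aorta over both strains was 0.02 with the mean over probes. The other 4 were of Slc2a1 and small. Its aortic response of KO less WT lay between -0.406 and 0.181 when an experiment was left out and was 0.288 without the aortic KO chow array of experiment 1. With an experiment left out, its muscle WT diet value lay between -0.334 and 0.043, its muscle value of KO over WT between -0.156 and 0.281 on chow and between -0.272 and 0.081 on HFD. Of the 409 other differences of the genes, 226 changed direction under some alternative. Of the recomputed values of the 75, 843 kept direction and side of the threshold, 20 were no longer called and 3 became called, G6pc3 in muscle once and Eno1 between the tissues 2 times. The 12 genes called between aorta and muscle became 7 without experiment 1, 4 without experiment 2 and 9 without experiment 3. Of all probes, the number called fell from 7715 to 4763, 3027 and 7186 in these refits. The fall is therefore by itself no result about these genes. The genes called were 12 without the aortic KO chow array of experiment 1, and 20 with the replicate block of pools, in a paired fit. In muscle over both strains 1 gene was called with the slide as a block. All other counts of called genes for diet, strain and the difference of the tissues stayed at 0, with and without the replicate block. So did those of the methods' t-test after adjustment. At an unadjusted p under 0.05 that t-test gave 2 and 4 genes in aorta WT and KO and 4 and 0 in muscle. No share of all probes is given beside these t-test counts. The median over the genes between aorta and muscle, -0.185, was -0.022 under quantile scaling, 0.011 with only probes above background on every array and -0.121 with the mean over probes, and lay between -0.235 (without the aortic KO chow array of experiment 1) and -0.118 when an experiment or that array was left out. The aortic median of KO over WT on chow, 0.135, lay between -0.017 (without that array) and 0.17, with 0.053 without experiment 1. The aortic median of the response of KO less WT, -0.03, lay between -0.086 and 0.253 (without that array). That array was left out as an alternative chosen after seeing the data. The cause of these shifts was not tested. The deposited log2 table could not be used between tissues. Signal over background limits Fbp1, Fbp2, Pgam2, Hk3, Pklr and Aldoc, which were not above it on all arrays.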
